A study of Mus musculus with 22 samples.

Results

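The genes described here are 10 transcription factors that cells switch on rapidly after a stimulus or injury: the FOS-family genes Fos, Fosl1, and Fosl2, the JUN-family genes Jun and Junb, the ATF/CREB-family gene Atf3, the zinc-finger genes Egr1, Klf6, and Klf4, and Myc. They were chosen by name from a table of 32858 mouse genes, and all 10 were found in it. Each was measured by RNA-Seq as messenger RNA in whole kidney from 22 male C57Bl6/J mice that were 8 to 10 weeks old and carried no engineered allele. Cisplatin, a platinum drug against tumors that injures the kidney, was injected at 3 mg/kg on 6 days. KW6002 (istradefylline), an antagonist of the adenosine receptor encoded by Adora2a, was given at 3 mg/kg every day from day -5 to day 7. The vehicle group (5 mice) received the DMSO, cremophor, and saline carrier without either drug, the KW6002 group (6 mice) received the antagonist alone, the cisplatin group (5 mice) received cisplatin, and the co-treated group (6 mice) received cisplatin plus KW6002. Kidneys were taken 72 hours after the last cisplatin injection, so a single late time point was measured. The comparisons ask how the factors differ after repeated cisplatin and whether the antagonist shifts them with or without cisplatin.

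FOS and JUN proteins pair through leucine zippers into AP-1, which binds DNA and drives genes of proliferation, matrix turnover, and inflammation, and JUN can also pair with ATF factors. The genes of this group are called immediate early because growth factor and stress signals, passed on by MAP kinases and serum response factor, turn them on without new protein synthesis, after which their short-lived transcripts usually fall back. In injured kidney tubules they are classic early responders, and KLF4, KLF6, and MYC are zinc-finger or helix-loop-helix regulators of epithelial identity and cell growth.

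Library totals ran from 26471762 to 40510754 counts (median 32721214.5). Values are given as CPM, the counts of a gene scaled to the TMM-normalized library total, and levels of different genes are compared only after division by exon length (CPM per kb). Of all genes, 17131 had enough counts to be tested, among them all 10 factors. All 22 libraries entered 1 edgeR quasi-likelihood model. A gene is said to pass where its Benjamini-Hochberg adjusted p was below 0.05, and to be called where it also met the stricter rule of the study (adjusted p below 0.01 and a change of over 1 on the log2 scale). The labels number 6 mice in the 300s (3 given vehicle and 3 given KW6002) and 16 mice in the 500s, and both groups given cisplatin hold only the 500s. Between these label series 1971 tested genes (11.5%) passed in a fit with the series as a covariate, and what the series stands for is not given in the sources used here. The tissue label matched its markers: the summed counts of 10 proximal tubule markers, per raw library total as CPM, were 16230 to 17750 in the vehicle kidneys and none of the 10 was at 0 in any group.

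The 250 bases before the RefSeq start (GRCm38.p6, written 5′ to 3′ on the strand of the gene) are shown for Fos, Jun, Junb, and Atf3, since these stress-inducible promoters belong to genes that rose together and yet differed in their spread between mice. Capitals mark, on either strand, the letters TGACG (core of the cyclic AMP response element), the letters TGACATCA (a variant AP-1 site), the letters GGGCGG (bound by SP and KLF proteins), the CCAAT box, and the letters TATAAA bound by the basal transcription machinery. The windows are chr12:85473640-85473889 for Fos, chr4:95052223-95052472 for Jun, chr8:84978749-84978998 for Junb, and chr1:191183334-191183583 for Atf3. The Atf3 window lies inside the annotated span of the gene (191170296 to 191218039, minus strand), before an internal start. The bases before the outermost annotated start of Atf3 are not shown.
Fos: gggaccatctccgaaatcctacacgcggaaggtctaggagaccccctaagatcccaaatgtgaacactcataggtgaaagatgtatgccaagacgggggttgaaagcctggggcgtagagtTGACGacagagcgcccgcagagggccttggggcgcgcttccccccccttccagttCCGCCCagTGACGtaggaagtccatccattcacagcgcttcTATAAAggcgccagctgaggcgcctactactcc
Jun: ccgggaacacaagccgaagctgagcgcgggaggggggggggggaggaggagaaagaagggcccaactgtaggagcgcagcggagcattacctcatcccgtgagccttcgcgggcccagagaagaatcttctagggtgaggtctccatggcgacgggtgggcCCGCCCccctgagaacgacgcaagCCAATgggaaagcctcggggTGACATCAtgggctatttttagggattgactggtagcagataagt
Junb: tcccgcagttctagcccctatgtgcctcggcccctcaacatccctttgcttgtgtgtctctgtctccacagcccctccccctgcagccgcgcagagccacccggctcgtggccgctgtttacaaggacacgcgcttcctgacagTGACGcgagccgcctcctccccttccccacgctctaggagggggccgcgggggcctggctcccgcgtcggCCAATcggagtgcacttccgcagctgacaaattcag
Atf3: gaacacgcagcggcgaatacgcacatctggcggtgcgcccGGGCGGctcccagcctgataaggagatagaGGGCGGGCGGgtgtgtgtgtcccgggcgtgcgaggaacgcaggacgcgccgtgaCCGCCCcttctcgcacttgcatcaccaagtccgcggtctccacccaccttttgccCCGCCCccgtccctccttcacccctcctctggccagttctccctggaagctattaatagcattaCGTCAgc

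Fos carried TGACG from base -66 to base -62 and again from base -129 to base -125, with TATAAA from base -33 to base -28. Jun carried TGACATCA from base -45 to base -38 and CCAAT from base -65 to base -61. Junb had TGACG from base -106 to base -102 and CCAAT from base -36 to base -32, and Atf3 had TGACG on the other strand from base -7 to base -3. Promoter entries were found for 7 of the 10 factors (not for Fosl1, Egr1, or Myc). Among these 7, TGACG stood in 4 (Fos, Junb, Atf3, and Klf4) against 17.8% of 32851 promoters of the same length, TGACATCA in 2 (Jun and Klf6) against 2.93%, and GGGCGG in 6 (all but Junb) against 32.7%. CCAAT was present in 3 (Jun, Junb, and Klf6) against 33.8%, TATAAA in Fos against 12.4%, CACGTG, the E-box bound by MYC, in 2 (Klf4 and Klf6) against 6.02%, and GCGGGGGCG, bound by EGR proteins, in 2 (Fosl2 and Klf4) against 2.57%. The full 8-letter TGACGTCA, the AP-1 site TGACTCA, and the CArG box bound by serum response factor were in none of the 7, against 1.55%, 4.46%, and 1.47% of all promoters. Only the 250 bases before the start were searched, so letters further upstream, and the promoters of Fosl1, Egr1, and Myc, were not seen. The Fosl2 window (chr5:32136222-32136471), like that of Atf3, lies inside the annotated span of its gene, before an internal start. TGACGTCA contains TGACG, and GCGGGGGCG overlaps GGGCGG. A match of letters is a description and was not tested as a site.

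On mm10, Fos (ENSMUSG00000021250) lies on chromosome 12 from 85473890 to 85477273, Fosl1 (ENSMUSG00000024912) on chromosome 19 from 5447547 to 5455946, and Fosl2 (ENSMUSG00000029135) on chromosome 5 from 32135801 to 32157842, all on the plus strand. Jun (ENSMUSG00000052684) lies on chromosome 4 from 95049034 to 95052222, Junb (ENSMUSG00000052837) on chromosome 8 from 84974484 to 84978718, and Atf3 (ENSMUSG00000026628) on chromosome 1 from 191170296 to 191218039, all on the minus strand. Egr1 (ENSMUSG00000038418) is on chromosome 18 from 34859823 to 34864984 and Klf6 (ENSMUSG00000000078) on chromosome 13 from 5861482 to 5870394, both on the plus strand. Klf4 (ENSMUSG00000003032) is on the minus strand of chromosome 4 from 55527143 to 55532466, and Myc (ENSMUSG00000022346) is on the plus strand of chromosome 15 from 61985391 to 61990374. All 10 are protein-coding. Fosl1, Jun, Junb, and Atf3 overlap genes on the other strand (Ccdc85b, Junos, Prdx2, and Gm24748, respectively), and because the sources used here do not say whether counting used strand, reads of the overlapping stretches cannot be told apart.

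All 10 factors were higher in the cisplatin kidneys than in the vehicle kidneys without overlap of the groups, as were 27.4% of all tested genes. Egr1, Fos, and Junb rose most among those with measurable vehicle levels, and Fosl1 went from almost no reads to a well-expressed gene. Fosl1 was selected for testing only through the kidneys given cisplatin, so its difference from vehicle was built in. With KW6002 added to cisplatin, Fosl1, Fosl2, Jun, Klf6, Klf4, and Myc were lower than with cisplatin alone, where 27.2% of all tested genes passed lower. Fos and Atf3 differed by a log2 fold change of -0.15 and -0.17. KW6002 alone passed the test for no factor and for 0.0175% of all tested genes.

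**Figure D1:**
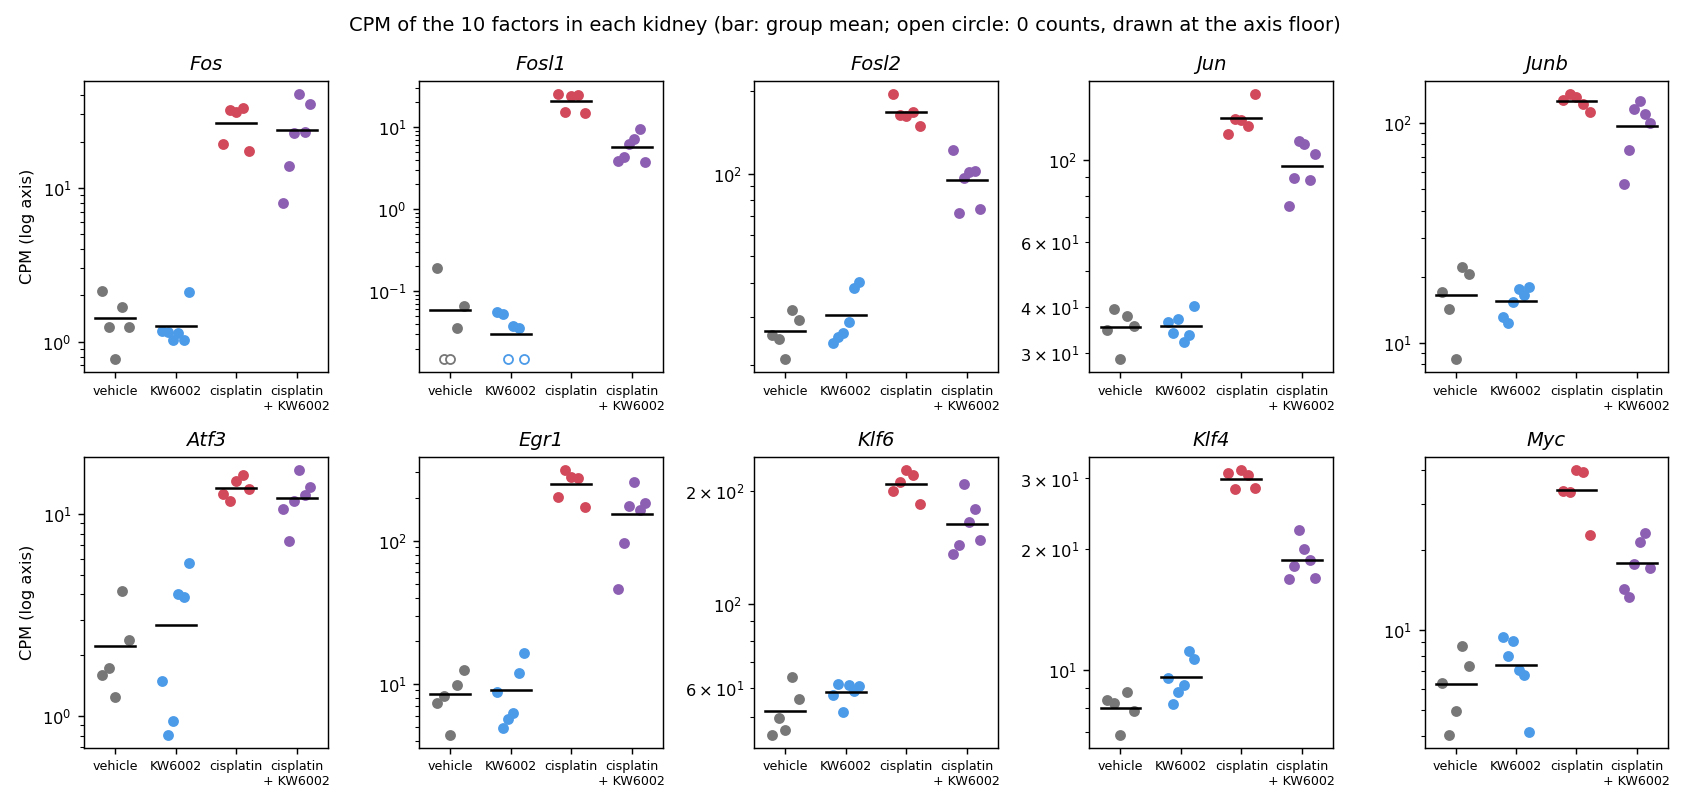
CPM (log axis, a range of its own in each panel) of the 10 factors in each of the 22 kidneys, with the group mean as a bar and open circles for libraries with 0 counts. The 5 cisplatin kidneys lay above all 5 vehicle kidneys in every panel, as for 27.4% of all tested genes. For Fosl1 this was built into its selection for testing. The co-treated kidneys overlapped the cisplatin kidneys for Fos, Junb, Atf3, Egr1, Klf6, and Myc.

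Fos, the founding AP-1 subunit, measured 2.14, 1.24, 0.773, 1.69, and 1.24 CPM in the 5 vehicle kidneys. Fos in the KW6002 kidneys had a lowest value of 1.02, a median of 1.14, and a highest value of 2.11 CPM. Both groups without cisplatin therefore stayed within the same low range. The highest KW6002 mouse (2.11 CPM) was below the highest vehicle mouse (2.14 CPM). Fos reached 19.2, 32.3, 31.1, 33.01, and 17.3 CPM in the cisplatin kidneys, and in the co-treated kidneys the lowest, median, and highest values were 8.03, 22.9, and 40.6 CPM. The co-treated mice spread around the cisplatin mice on both sides, and the lowest of them still exceeded every vehicle mouse. Fos rose 18.7-fold with cisplatin (log2 fold change 4.22, SE 0.38, adjusted p = 1.16e-09), and co-treated and cisplatin kidneys differed by -0.15 (SE 0.29, adjusted p = 0.672).

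Fosl1 encodes FRA-1, a FOS-family subunit that lacks a strong activation domain of its own and is typical of migrating and injured epithelium. It gave 6, 0, 0, 1, and 2 counts in the vehicle libraries and between 0 and 2 counts in the KW6002 libraries. A count of 0 in a library allows up to 3 counts of its total. Summed over the group and divided by the library totals, this was 0.0582 CPM with vehicle (exact Poisson 95% interval 0.0266 to 0.110, counting error only) and 0.0309 CPM with KW6002 (0.0113 to 0.0672). Fosl1 stood at 25.1, 15.1, 23.9, 24.4, and 15.0 CPM in the cisplatin kidneys, and the co-treated kidneys had a lowest value of 3.72, a median of 5.24, and a highest value of 9.34 CPM. The highest co-treated mouse was below the lowest cisplatin mouse. Fosl1 met the filter on low counts only through the kidneys given cisplatin, so that a difference from vehicle was built into its selection for testing, and its fitted log2 fold change of 8.29 (SE 0.43, adjusted p = 8.83e-14) depends on the prior count. The fall from cisplatin to co-treatment, 3.58-fold (log2 fold change -1.84, SE 0.23, adjusted p = 5.87e-07), was the only change among the 10 factors that the rule of the study called in that comparison.

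Fosl2 encodes FRA-2, the most abundant FOS-family transcript of the vehicle kidney. Fosl2 measured 25.9, 25.02, 21.1, 31.8, and 29.4 CPM with vehicle, and its lowest, median, and highest values with KW6002 were 24.1, 27.6, and 40.3 CPM. It stood at 195, 163, 162, 167.5, and 149.9 CPM with cisplatin, and at a lowest value of 72.2, a median of 98.9, and a highest value of 122 CPM with co-treatment. The 4 groups formed 3 levels without overlap between them: both groups without cisplatin at the bottom, co-treatment in between, and cisplatin at the top. Fosl2 rose 6.29-fold with cisplatin (log2 fold change 2.65, SE 0.16, adjusted p = 1.05e-12) and was 1.77-fold lower with co-treatment than with cisplatin (-0.82, SE 0.14, adjusted p = 3.43e-05).

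Jun, the main partner of FOS proteins, measured 34.6, 39.5, 28.9, 37.7, and 35.4 CPM with vehicle, and 32.2, 35.2, and 40.2 CPM as the lowest, median, and highest values with KW6002. The vehicle and KW6002 kidneys shared 1 range, and none was far from the others. Jun reached 117.5, 129, 128.5, 123, and 150.5 CPM with cisplatin, against a lowest value of 75.0, a median of 96.4, and a highest value of 112 CPM with co-treatment. Every co-treated mouse was below every cisplatin mouse, though the nearest pair was close. Jun rose 3.68-fold with cisplatin (log2 fold change 1.88, SE 0.10, adjusted p = 2.01e-13) and was 1.34-fold lower with co-treatment (-0.43, SE 0.09, adjusted p = 4.90e-04).

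Junb encodes a JUN-family subunit with weaker activating power than JUN. Junb measured 16.9, 14.3, 8.44, 22.1, and 20.5 CPM with vehicle, and its lowest, median, and highest values with KW6002 were 12.3, 15.8, and 18.01 CPM. It stood at 128, 135.5, 131, 122, and 113 CPM with cisplatin, and the co-treated kidneys had a lowest value of 52.6, a median of 105.1, and a highest value of 127 CPM. Cisplatin kidneys were close to each other, while the co-treated kidneys ran from well below them into their range. Junb rose 7.65-fold with cisplatin (log2 fold change 2.93, SE 0.22, adjusted p = 4.96e-11), and the difference between co-treatment and cisplatin of -0.38 (SE 0.19, adjusted p = 0.0979) did not pass. It passed without co-treated replicate 4, the highest co-treated mouse, at -0.47 (adjusted p = 0.0482). With any other library left out it did not pass, and the estimates over all such fits ran from -0.47 to -0.25.

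Atf3, a stress-induced factor that forms dimers with JUN and often represses its targets, measured 1.59, 1.72, 1.24, 4.16, and 2.38 CPM with vehicle, and 0.810, 2.70, and 5.75 CPM as the lowest, median, and highest values with KW6002. The 3 vehicle mice numbered in the 300s (1.24 to 1.72 CPM) were below both numbered in the 500s (2.38 to 4.16 CPM), and the 3 KW6002 mice of the 300s (0.810 to 1.49 CPM) were below the 3 of the 500s (3.90 to 5.75 CPM). Atf3 reached 12.6, 11.6, 14.6, 15.5, and 13.3 CPM with cisplatin, and a lowest value of 7.37, a median of 12.0, and a highest value of 16.5 CPM with co-treatment. Both groups given cisplatin overlapped widely and lay above every mouse without cisplatin of either label series. Atf3 rose 6.09-fold with cisplatin (log2 fold change 2.61, SE 0.40, adjusted p = 3.81e-06), or by 2.05 (adjusted p = 4.84e-06) when only mice of the 500s were fitted and by 1.78 (adjusted p = 3.45e-06) with the series as a covariate. Co-treatment and cisplatin differed by -0.17 (SE 0.33, adjusted p = 0.694).

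Egr1, a zinc-finger immediate early factor that responds to serum and MAP kinase signals, measured 7.42, 8.26, 4.44, 9.76, and 12.6 CPM with vehicle, and its lowest, median, and highest values with KW6002 were 4.94, 7.54, and 16.4 CPM. It reached 202, 312, 279.8, 274, and 171 CPM with cisplatin, and a lowest value of 46.1, a median of 169, and a highest value of 258 CPM with co-treatment. The co-treated mice were spread widely, with replicate 1 at 46.1 CPM, replicate 2 at 96.55 CPM, and the others from 163.8 CPM upward. The lowest of them was still above every mouse without cisplatin. Egr1 rose 29.2-fold with cisplatin (log2 fold change 4.87, SE 0.41, adjusted p = 3.62e-10), and the difference of -0.69 between co-treatment and cisplatin (SE 0.32, adjusted p = 0.0723) did not pass. It passed without co-treated replicate 4, the highest co-treated mouse, at -0.90 (adjusted p = 0.0231). With any other library left out it did not pass, and the estimates over all such fits ran from -0.90 to -0.50.

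Klf6, a widely expressed zinc-finger factor induced by injury, measured 45.1, 49.7, 46.4, 63.9, and 55.8 CPM with vehicle, and its lowest, median, and highest values with KW6002 were 51.8, 59.6, and 61.3 CPM. It stood at 199, 211, 227, 221, and 184.5 CPM with cisplatin, and at a lowest value of 136, a median of 156, and a highest value of 208 CPM with co-treatment. Co-treated replicate 3 alone lay within the cisplatin range, and the other 5 were below it. Klf6 rose 3.997-fold with cisplatin (log2 fold change 2.00, SE 0.11, adjusted p = 1.39e-13) and was 1.28-fold lower with co-treatment (-0.35, SE 0.10, adjusted p = 0.00375).

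Klf4, a zinc-finger factor of differentiated epithelium and endothelium and also of reprogramming, measured 8.39, 8.26, 6.89, 8.81, and 7.88 CPM with vehicle, and its lowest, median, and highest values with KW6002 were 8.23, 9.34, and 11.1 CPM. It stood at 30.9, 28.3, 31.5, 30.6, and 28.4 CPM with cisplatin, and at a lowest value of 16.8, a median of 18.5, and a highest value of 22.3 CPM with co-treatment. Klf4 was the steadiest of the factors, and its co-treated mice occupied a narrow band clear of the cisplatin mice above and of all mice without cisplatin below. Klf4 rose 3.72-fold with cisplatin (log2 fold change 1.90, SE 0.09, adjusted p = 1.60e-14) and was 1.59-fold lower with co-treatment (-0.67, SE 0.08, adjusted p = 2.70e-07).

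Myc, a driver of ribosome synthesis and cell growth, measured 6.35, 4.05, 4.97, 8.74, and 7.36 CPM with vehicle, and its lowest, median, and highest values with KW6002 were 4.14, 7.53, and 9.40 CPM. It stood at 33.4, 33.2, 40.1, 39.3, and 22.8 CPM with cisplatin, and at a lowest value of 13.4, a median of 17.4, and a highest value of 23.3 CPM with co-treatment. Cisplatin replicate 5 was the only cisplatin mouse within the co-treated range. Myc rose 5.35-fold with cisplatin (log2 fold change 2.42, SE 0.22, adjusted p = 1.01e-09) and was 1.89-fold lower with co-treatment (-0.92, SE 0.19, adjusted p = 2.97e-04).

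**Figure D2:**
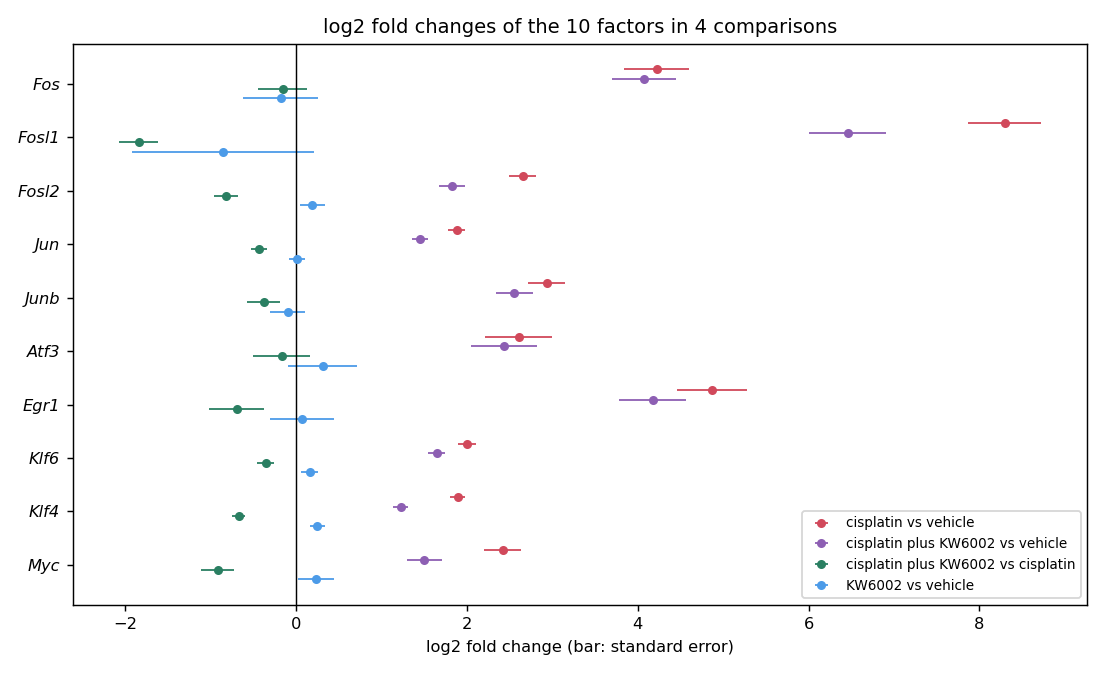
Log2 fold changes of the 10 factors (points) with their standard errors (bars) in 4 comparisons of the edgeR fit. All 10 lay to the right of 0 for cisplatin and for co-treatment against vehicle and to the left for co-treatment against cisplatin, and Fosl1 had the widest bar for KW6002 against vehicle, where its counts were lowest.

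Cisplatin changed most of the kidney transcriptome, and the count of the factors has to be read against that. Of the tested genes, 34.6% passed higher with cisplatin than with vehicle, 35.9% passed lower, and 12.1% were called higher. Apart from Fosl1, all 9 factors passed higher, with log2 fold changes from 1.88 to 4.87 and a median of 2.61 beside -0.01 over all tested genes. Their groups did not overlap in any case, as for 27.4% of the tested genes that were higher throughout. The bulk tissue was measured, so a change in the share of cells that express a factor and a change in its RNA per cell cannot be told apart. Scaling by library size only moved the all-gene median to 0.20 on the log2 scale in this comparison and to 0.16 between co-treated and vehicle kidneys, and all 9 factors other than Fosl1 passed higher in both comparisons under that scaling. Of 17131 tested genes, 8157 and 7394 passed higher in these 2 comparisons with that scaling.

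Between co-treatment and cisplatin, 6 of the 10 factors passed lower (5 of the 9 other than Fosl1) against 27.2% of the tested genes, and 1 was called lower against 5.66%. Fosl1, Fosl2, Jun, and Klf4 did not overlap between these groups, against 18.5% of the tested genes that were lower throughout. The point estimates of Fos, Junb, Atf3, and Egr1 were also below 0, and pooled over all 4 groups these factors varied most from mouse to mouse apart from Fosl1. For Atf3 the spread was largest in the groups without cisplatin, which hold both label series. Its SD of log2 CPM was 0.653 with vehicle, 1.165 with KW6002, 0.168 with cisplatin, and 0.390 with co-treatment. The tests of Fos, Junb, Atf3, and Egr1 missed the threshold, which does not show that co-treated and cisplatin kidneys were alike.

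Co-treated kidneys were above vehicle kidneys, with no overlap, for all 9 factors other than Fosl1, which was selected for testing through the kidneys given cisplatin. All 9 passed higher, with a median log2 fold change of 1.83 (29.8% of tested genes passed higher, 5.83% were called higher, and 18.9% were higher without overlap). The log2 fold changes were 4.07 for Fos, 6.46 for Fosl1, 1.83 for Fosl2, 1.45 for Jun, 2.56 for Junb, 2.44 for Atf3, 4.18 for Egr1, 1.65 for Klf6, 1.23 for Klf4, and 1.504 for Myc. The largest adjusted p was that of Atf3 (1.17e-05), whose value was 1.61 (adjusted p = 1.73e-05) with the label series as a covariate. This comparison shares its vehicle mice with the comparison of cisplatin and vehicle, and its co-treated mice with that of co-treatment and cisplatin.

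KW6002 without cisplatin passed for 0 of the 10 factors in edgeR and 0 in DESeq2, with 0.0175% of all tested genes passing in edgeR. Klf4 alone had an unadjusted p below 0.05 (11.3% of the tested genes did), with a log2 fold change of 0.25 (SE 0.09, adjusted p = 0.285). The other estimates ran from -0.18 for Fos to 0.31 for Atf3, with Fosl1 at -0.85 (SE 1.06) on 9 and 6 counts in all. None of the 10 separated the groups without overlap, as 1.38% of the tested genes did.

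Whether KW6002 acted differently with and without cisplatin was tested as the difference of its effects. It was negative and passed for 5 factors (19.9% of tested genes passed lower): Fosl2 at -1.02 (SE 0.20, adjusted p = 3.76e-04), Jun at -0.44 (SE 0.13, adjusted p = 0.0110), Klf6 at -0.52 (SE 0.14, adjusted p = 0.00473), Klf4 at -0.92 (SE 0.12, adjusted p = 2.04e-06), and Myc at -1.16 (SE 0.28, adjusted p = 0.00236). Fosl2 and Myc also met the call rule, as 4.33% of the tested genes did on the lower side. The 300s series has no mice given cisplatin, so the difference can be formed within the 500s only, and there Fosl2 (-1.05, adjusted p = 0.00184) and Klf4 (-0.97, adjusted p = 8.58e-05) passed and the other 3 did not. In that fit 6053 of 17131 tested genes passed, 3203 of them higher and the rest lower. Jun was then at -0.38 (adjusted p = 0.1075), Klf6 at -0.36 (adjusted p = 0.1097), and Myc at -0.49 (adjusted p = 0.248). Fosl1 passed between co-treatment and cisplatin but not here (-0.99, SE 1.32, adjusted p = 0.576).

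The level of Atf3 differed between the label series more than that of any other factor. In the covariate fit, Atf3 was higher by 1.63 (SE 0.23, adjusted p = 1.17e-04) on the log2 scale in the 500s than in the 300s, and Fosl2 was higher by 0.44 (SE 0.12, adjusted p = 0.0185). The other 8 did not pass, among them Junb at 0.51 (SE 0.18, adjusted p = 0.0745) and Egr1 at 0.79 (SE 0.35, adjusted p = 0.153). With only the 500s, cisplatin against vehicle gave 4.19 for Fos, 8.57 for Fosl1, 2.46 for Fosl2, 1.83 for Jun, 2.56 for Junb, 4.47 for Egr1, 1.80 for Klf6, 1.84 for Klf4, and 2.07 for Myc, and all passed.

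**Figure D3:**
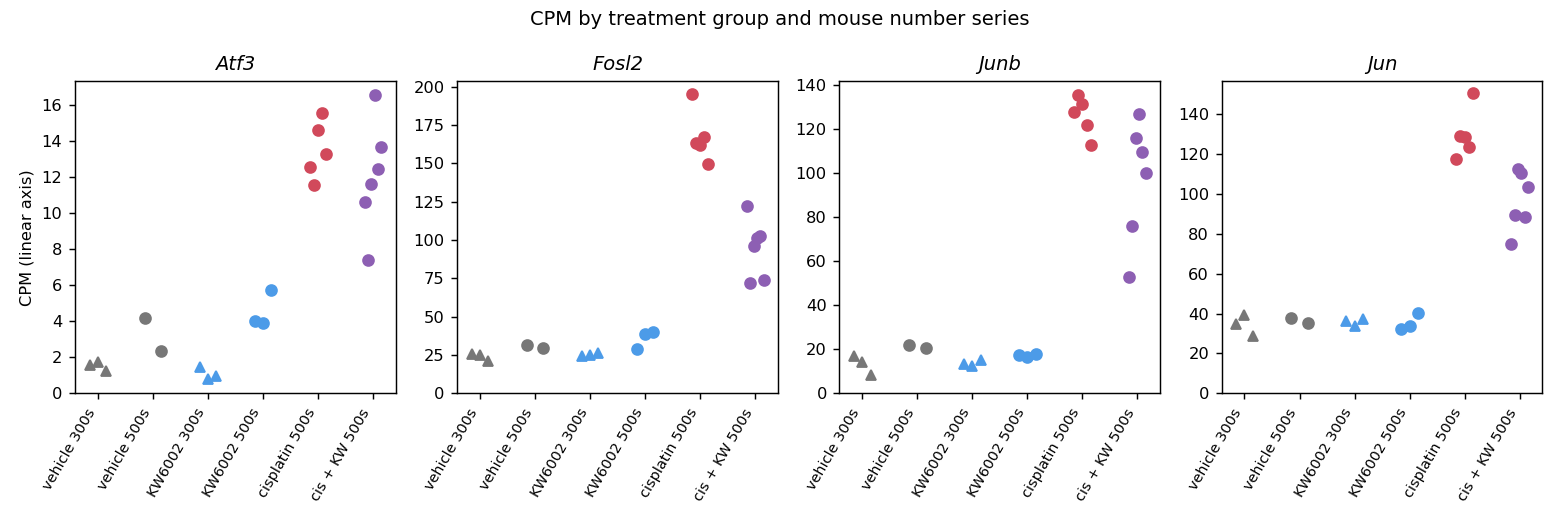
CPM (linear axis, from 0) of Atf3, Fosl2, Junb, and Jun by group and label series, with triangles for mice numbered in the 300s and circles for those in the 500s. Atf3 in the 300s lay between 0.810 and 1.72 CPM, below all mice of the 500s (2.38 CPM and above), while Jun showed no such step.

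The makeup of the FOS family shifted with cisplatin. Per kb of exon, Fosl2 held 79.8% ± 4.92 (SD, n = 5) of the summed FOS-family transcripts in vehicle kidneys and 44.4% ± 5.25 (SD, n = 5) in cisplatin kidneys, without overlap (72.4 to 84.9% against 39.3 to 50.5%). Fosl1 held 0.773% ± 1.08 (SD, n = 5) with vehicle and 25.7% ± 4.12 (SD, n = 5) with cisplatin, and with co-treatment it held 12.0% ± 3.63 (SD, n = 6), a range of 7.25 to 17.9% below that of cisplatin (19.3 to 30.0%). Fos took 17.1% ± 4.56 (SD, n = 5) with vehicle, 28.5% ± 6.41 (SD, n = 5) with cisplatin, and 40.5% ± 13.5 (SD, n = 6) with co-treatment, where single mice ran from 18.6 to 59.0%. Fosb, the remaining member of the family, stayed at or below 11.4% in every kidney. The summed level was 3.47 ± 0.629 CPM per kb with vehicle, 39.4 ± 5.29 with cisplatin, and 23.97 ± 6.79 with co-treatment (SD). These shares are descriptions of RNA and were given no test.

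Jund, the JUN-family member that is not an early responder in the classic sense, was the main JUN-family transcript of the vehicle kidney at 61.2% ± 6.95 (SD, n = 5) and stood at 43.3% ± 4.20 (SD, n = 5) with cisplatin. Junb went from 14.6% ± 2.01 to 32.6% ± 4.11 without overlap of the groups (12.1 to 17.1% against 25.4 to 35.4%). The share of Jun was 24.2% ± 6.54 with vehicle and 24.1% ± 1.11 with cisplatin, so its higher level went with a summed JUN-family level that increased from 48.9 ± 16.0 to 169 ± 16.3 CPM per kb.

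**Figure D4:**
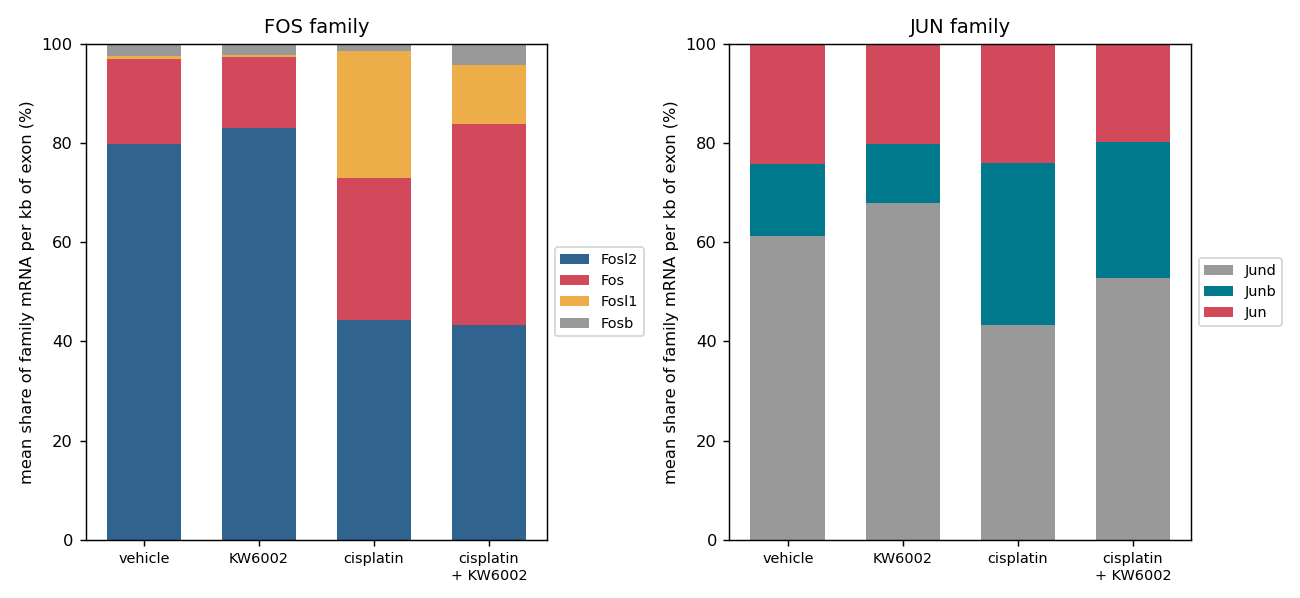
Mean share (percent, per kb of exon) of each transcript in the summed FOS family (left) and JUN family (right) in the 4 groups, drawn as stacked bars without error bars. Fosl2 filled 79.8% of the FOS bar with vehicle and 44.4% with cisplatin, where Fosl1 filled 25.7%.

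Ordered by level per kb, the vehicle kidney had Klf6 (11.9 ± 1.77 CPM per kb, SD, n = 5) and Jun (11.1 ± 1.26) at the top, within a SD of each other, followed by Junb (7.15 ± 2.35). Fosl2 (2.75), Klf4 (2.64), Myc (2.32), Egr1 (1.89), Atf3 (1.03), and Fos (0.602) came next, and no neighbors among these 6 differed beyond their SDs. Fosl1 was last at 0.0290. In the cisplatin kidney Egr1 (55.3 ± 13.1 CPM per kb, SD, n = 5) stood first, next to Junb (54.7 ± 3.83), Klf6 (47.5 ± 3.89), and Jun (40.7 ± 3.92), and again each overlapped its neighbor within a SD. Fosl2 (17.3 ± 1.73) came next, apart from both neighbors, and Myc (12.4), Fos (11.3), Fosl1 (10.2), and Klf4 (9.82) could not be separated by their SDs. Atf3 was lowest at 6.28 ± 0.734. With co-treatment Junb (42.1), Klf6 (37.2), Egr1 (34.3), and Jun (30.3) led, Fosl1 was last at 2.84 ± 1.10, and Fos (10.2 ± 5.24) stood beside Fosl2 (9.80 ± 1.96).

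The factors differed in how much mice of a group varied. The pooled within-group SD of log2 CPM was 0.721 for Atf3, 0.661 for Egr1, 0.596 for Fos, 0.569 for Fosl1, 0.383 for Junb, 0.380 for Myc, and 0.260 for Fosl2, against a median of 0.171 over all tested genes. Klf6 (0.173), Jun (0.169), and Klf4 (0.138) varied about as much as that median. The SD of Atf3 was 0.653 with vehicle and 1.165 with KW6002, which hold both label series, 0.168 with cisplatin, and 0.390 with co-treatment. That of Fosl1 was 0.853 with vehicle, at 0 to 6 counts, and 0.383 with cisplatin. For 7 factors the lowest cisplatin value was that of replicate 5, and for 6 factors the lowest co-treated value was that of replicate 1. With both of these libraries left out, a choice made after the values were seen, all 9 factors other than Fosl1 still passed higher with cisplatin and 6 of the 10 passed lower with co-treatment. In that fit 5850 of 17131 tested genes passed higher with cisplatin. Between co-treatment and cisplatin 9473 passed, 4868 of them higher and the rest lower.

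Deviations of the mice from their group means tended to go together. Over the 45 pairs of factors and the 22 libraries, Pearson r of the group-centered log2 CPM ran from -0.106 (Atf3 and Myc) to 0.817 (Junb and Egr1), with a median of 0.404. Fos followed Egr1 (r = 0.815) and Junb (r = 0.740), Fosl1 was closest to Myc, and Fosl2 was closest to Atf3 (r = 0.672), a value that was 0.288 after centering on group and label series. Fos and Egr1 were at 0.848 after that centering. These values describe 22 libraries that share the same handling and depth for both genes of a pair. In the libraries without cisplatin Fosl1 had 0 to 6 counts, so its deviations there are largely counting error.

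**Figure D5:**
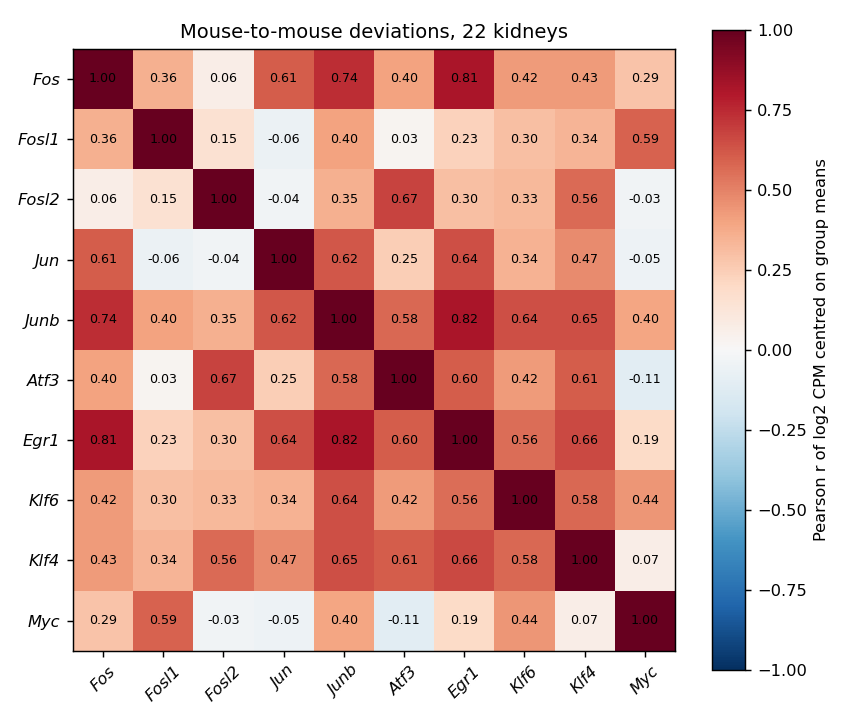
Pearson r between the factors over 22 kidneys, computed on log2 CPM after subtracting each group's mean (color scale from -1 to 1). Fos, Junb, and Egr1 formed the block with the highest values, 0.740 to 0.817.

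Likeness to a factor was searched for among the 12989 tested genes whose log2 CPM averaged 1 or more. Those whose group-centered pattern was most like that of Fos were Ier2 (r = 0.841), Zfp36 (r = 0.821), Mrpl30 (r = 0.820), Rtl8a (r = 0.800), and Btg2 (r = 0.794), and each was between 0.796 and 0.861 after centering on group and label series. For Atf3 they included Nr4a1 (r = 0.924), Bcl6b (r = 0.902), Gpd2 (r = 0.900), and Coq10b (r = 0.888). After centering on group and label series the Atf3 values were lower, at 0.773 for Nr4a1, 0.702 for Gpd2, 0.445 for Bcl6b, and 0.444 for Coq10b.

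Of 34 other immediate early genes tested, 30 passed higher and 0 lower with cisplatin (median log2 fold change 1.77, all genes -0.01), beside 34.6% and 35.9% of all tested genes. Between co-treatment and cisplatin, 19 of the 34 passed lower (27.2% of all tested genes did), 2 passed higher (28.6% did), and 13 did not pass (median -0.46, all genes 0.01). Egr2, a relative of Egr1, went from 0.353 ± 0.165 CPM with vehicle to 16.6 ± 1.85 with cisplatin and 6.26 ± 2.66 with co-treatment (SD). Its log2 fold change was 5.52 (SE 0.35, adjusted p = 2.70e-12) with cisplatin and -1.40 (SE 0.24, adjusted p = 3.28e-05) for co-treatment against cisplatin. Btg2, an antiproliferative p53 target, stood at 23.0 ± 1.79, 742 ± 121, and 238 ± 51.2 CPM in the same 3 groups, with changes of 5.01 (SE 0.16, adjusted p = 3.78e-17) and -1.64 (SE 0.13, adjusted p = 4.45e-10).

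Among 25 AP-1 and related bZIP partners other than the 10 factors, 18 passed higher and 5 lower with cisplatin, where 34.6% and 35.9% of all tested genes did (median 0.57, all genes -0.01). With co-treatment against cisplatin 5 were higher and 9 lower, shares not far from the 28.6% and 27.2% of all tested genes (median -0.02, all genes 0.01). Cebpd, an acute-phase factor, rose by 3.45 (SE 0.23, adjusted p = 6.27e-12), from 4.6 ± 2.32 to 50.5 ± 6.91 CPM, and Maff, a small MAF protein, by 3.44 (SE 0.23, adjusted p = 7.80e-12). Maf fell by 1.39 on the log2 scale (SE 0.11, adjusted p = 5.97e-11), from 358 ± 36.1 to 136 ± 25.4 CPM, and Atf2, a constitutive partner of JUN, fell by 0.45 (SE 0.04, adjusted p = 1.92e-09). With co-treatment against cisplatin Maff was lower (-1.11, SE 0.19, adjusted p = 3.70e-05), Maf higher (1.06, SE 0.10, adjusted p = 1.11e-08), and Atf2 higher (0.37, SE 0.04, adjusted p = 8.58e-08), while Cebpd stood at -0.29 (SE 0.19, adjusted p = 0.190).

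Of 13 other KLF genes tested, 8 passed higher and 1 lower with cisplatin (34.6% and 35.9% over all genes), with a median of 0.63. Against cisplatin alone, co-treatment had 2 of them higher and 5 lower (28.6% and 27.2% over all genes), with a median of -0.05. Klf5, a factor of proliferating epithelium, rose from 2.33 ± 0.556 to 15.4 ± 1.14 CPM (log2 fold change 2.72, SE 0.18, adjusted p = 5.13e-12) and was lower with co-treatment (-1.29, SE 0.15, adjusted p = 2.94e-07). Klf10, a TGF-beta early response gene, rose by 1.34 (SE 0.22, adjusted p = 9.97e-06) and was lower with co-treatment (-0.86, SE 0.20, adjusted p = 0.00105). Klf12 went the other way, from 28.5 ± 1.04 to 5.46 ± 0.932 CPM with cisplatin (-2.38, SE 0.10, adjusted p = 4.69e-15), and was higher with co-treatment (1.49, SE 0.10, adjusted p = 4.94e-11).

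In the MYC network, the partners and antagonists of MYC, 6 of 15 passed higher and 4 lower with cisplatin (median 0.12), and 3 higher and 5 lower with co-treatment against cisplatin (median 0.04). These counts are near the shares over all genes, 34.6% and 35.9% in the first comparison and 28.6% and 27.2% in the second, and are no result about the network. Mycl, a paralog of Myc, rose by 1.58 (SE 0.25, adjusted p = 5.84e-06) and Mlxip by 0.80 (SE 0.07, adjusted p = 1.01e-09), and with co-treatment they were lower at -1.16 (adjusted p = 1.65e-04) and -0.38 (adjusted p = 5.26e-05). Mlxipl, which encodes the glucose-sensing factor ChREBP, fell by 0.99 on the log2 scale (SE 0.07, adjusted p = 7.02e-12) and the MYC antagonist Mxi1 fell by 0.45 (SE 0.07, adjusted p = 2.95e-06). Both were higher with co-treatment than with cisplatin, Mlxipl by 0.83 (adjusted p = 4.31e-10) and Mxi1 by 0.30 (adjusted p = 3.99e-04). Genes linked to MYC control had 13 of 29 higher and 6 lower with cisplatin (median 0.11, all genes -0.01), and 16 higher and 2 lower with co-treatment against cisplatin (median 0.16, all genes 0.01), to be set beside the same shares. Cad, of pyrimidine synthesis, rose by 0.93 (SE 0.10, adjusted p = 2.85e-08) and Gnl3, which encodes nucleostemin, by 0.62 (SE 0.08, adjusted p = 1.34e-07), whereas Odc1, the first enzyme of polyamine synthesis, fell by 1.73 on the log2 scale (SE 0.22, adjusted p = 3.42e-07) and the mitochondrial chaperone gene Hspd1 fell by 0.92 (SE 0.07, adjusted p = 1.33e-10). Against cisplatin alone, co-treated kidneys had Cad at -0.15 (adjusted p = 0.173) and Gnl3 at 0.05 (adjusted p = 0.596), neither of which passed. Odc1 (0.75, adjusted p = 0.00443) and Hspd1 (0.265, adjusted p = 0.00264) passed higher, while Myc was lower.

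Upstream of the factors, 19 of 32 MAP kinase and serum response factor genes passed higher and 6 lower with cisplatin, beside 34.6% and 35.9% of all tested genes (median 0.22). With co-treatment against cisplatin the 7 higher and 10 lower were near the background of 28.6% and 27.2% (median -0.07). The p38 genes Mapk13 (log2 fold change 2.78, SE 0.12, adjusted p = 4.31e-15) and Mapk11 (1.80, SE 0.13, adjusted p = 3.58e-11) rose and were lower with co-treatment, at -1.36 (adjusted p = 4.51e-10) and -1.03 (adjusted p = 2.30e-07). Map2k6, a kinase of p38, fell by 0.86 on the log2 scale (SE 0.15, adjusted p = 1.94e-05) and Map2k2, a kinase of ERK, fell by 0.37 (SE 0.05, adjusted p = 1.91e-06). Both were higher with co-treatment than with cisplatin, Map2k6 by 0.54 (adjusted p = 0.00258) and Map2k2 by 0.60 (adjusted p = 1.89e-09). These are transcript levels, and kinase activity was not measured in these data.

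Genes linked to AP-1 control had 18 of 25 higher and 3 lower with cisplatin (34.6% and 35.9% over all genes, median 1.59), and 2 higher and 19 lower with co-treatment against cisplatin (28.6% and 27.2% over all genes, median -0.96). Timp1, an inhibitor of matrix metalloproteinases, went from 0.518 ± 0.184 CPM with vehicle to 35.0 ± 7.01 with cisplatin and 11.4 ± 5.32 with co-treatment (log2 fold changes 6.05, SE 0.37, adjusted p = 1.73e-12, and -1.61, SE 0.25, adjusted p = 1.05e-05). Fscn1, an actin-bundling protein, fell by 0.44 on the log2 scale with cisplatin (SE 0.16, adjusted p = 0.0192) and did not pass with co-treatment against cisplatin (-0.15, adjusted p = 0.418). KW6002 without cisplatin passed for 0 genes in any of these 7 lists in edgeR.

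Markers of proximal tubule and fibroblasts moved with the same groups. Over all tested genes, 34.6% passed higher and 35.9% lower with cisplatin, and 28.6% and 27.2% with co-treatment against cisplatin. The sums given here are scaled to the raw library total, without TMM factors. Of 10 proximal tubule markers, 10 passed lower with cisplatin and 9 passed higher with co-treatment against cisplatin, and their summed CPM was 16230 to 17750 with vehicle, 16000 to 17040 with KW6002, 1876 to 3675 with cisplatin, and 7240 to 10390 with co-treatment. Of 8 fibroblast markers, 7 passed higher with cisplatin and 6 lower with co-treatment against cisplatin, with sums of 235 to 469.9 CPM with vehicle, 271 to 531.6 with KW6002, 1058 to 1391 with cisplatin, and 456 to 859 with co-treatment. The list of 8 fat markers summed to 2401 to 4444 CPM with vehicle, 3133 to 3777 with KW6002, 5502 to 8758 with cisplatin, and 1662 to 4105 with co-treatment, but Pck1, a gluconeogenesis gene that proximal tubule also expresses, made up most of each sum and was the 1 gene that passed higher with cisplatin (Retn and Ucp1 passed lower). Without Pck1, a choice made after the values were seen, the other 7 summed to 61.7 to 822 CPM with vehicle, 12.9 to 373.8 with KW6002, 242 to 503.7 with cisplatin, and 6.92 to 284 with co-treatment. With co-treatment against cisplatin 6 of the 8 passed lower, Pck1 among them, and 0 higher.

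Macrophage markers summed to 184 to 465.5 CPM with vehicle, 170.0 to 516 with KW6002, 289 to 419.7 with cisplatin, and 162 to 266 with co-treatment, with 2 of 9 higher and 2 lower with cisplatin. Endothelial markers summed to 567.5 to 640.5 CPM with vehicle, 606 to 691 with KW6002, 720.0 to 919 with cisplatin, and 655 to 737 with co-treatment, with 3 of 8 higher and 1 lower. Neutrophil markers stayed between 4.06 and 17.1 CPM in all groups, with 3 of 6 tested higher, none lower, and Ngp at 0 in the vehicle group. T cell markers stayed between 2.43 and 8.34 CPM, with 1 of 7 tested higher and 5 lower. The macrophage and endothelial counts with cisplatin are near or below the shares over all genes and are no result about these cells. Between co-treatment and cisplatin, 1 of 9 macrophage markers passed higher and 2 lower, and 0 of 8 endothelial markers passed higher and 3 lower. Among neutrophil markers 0 of 6 tested passed higher and 4 lower, and among T cell markers 2 of 7 passed higher and 2 lower. The part of these cell types in the levels of the 10 factors was not tested.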

How the data were processed

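RNA from whole kidney of 22 mice was sequenced, 1 library per mouse. Per the labels and the methods of the study, the authors prepared stranded poly(A) libraries read from one end over 50 bases, aligned the reads to mm10 by STAR 2.5.3a, and counted uniquely aligned reads per Ensembl gene by HTSeq 0.6.1p1. Whether strand was used in counting is not given in the sources used here. The deposited values are raw counts of reads per gene, not normalized by the authors. Another 66 columns without name or value were not used. Symbols and positions came from GENCODE M21 on mm10 (32824 of 32858 genes matched), and promoter sequences from RefSeq.

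Counts were analyzed with edgeR 4.0.16 in R 4.3.3. The filterByExpr function required a CPM of 0.306 in 5 or more libraries with a summed count of 15, and 17131 genes holding 99.9% of all counts met this. A single quasi-likelihood fit with TMM factors, 1 mean per group, and no covariate gave all comparisons, with Benjamini-Hochberg adjustment over all tested genes. The biological coefficient of variation was 0.129. Standard errors were derived from the log2 fold change and the F statistic. On simulated counts for cisplatin and vehicle (17131 genes), 93 of 100 genes changed 2-fold and 99 of 100 changed 4-fold were recovered, and 6 unchanged genes passed. The changed genes were a small part of all genes, unlike in the real comparison. Genes as low with vehicle as Fosl1 were not among them, and no label series difference was simulated.

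The 10 factors and the gene lists were chosen with earlier results of these data known. Other genes named were, from each list, up to 2 in each direction with the largest change among those passing with cisplatin against vehicle among genes averaging 1 or more in log2 CPM, and the 5 genes most like Fos and Atf3 across mice. Some genes that meet these rules are not reported here. Alternatives were DESeq2 1.42.0, other size factors, library size only, other filters, a replicate number block, only the compared groups, the label series as a covariate, only the 500s mice, and each library left out. The label series effects, both low libraries left out, the centering on group and label series, and the fat marker sum without Pck1 were chosen after seeing the data.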

Additional observations from a re-analysis of the deposited data

Results flagged for a closer look

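Fos in KW6002 replicate 6 stood apart from its own group but within the vehicle range (0.773 to 2.14 CPM). Its value was 2.11 CPM against 1.02 to 1.18 CPM in the other 5 KW6002 mice. It was the single value flagged among 40 sets of a factor and a group, where chance flags about 1 in 20. The same mouse was the highest KW6002 mouse for 6 of the 10 factors.

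The effect of KW6002 differed between mice with and without cisplatin, by a test of the difference itself, for Fosl2 (log2 difference -1.02), Jun (-0.44), Klf6 (-0.52), Klf4 (-0.92), and Myc (-1.16). Over all tested genes 19.9% passed lower in that test. Within the mice numbered in the 500s, the difference passed for Fosl2 and Klf4 and missed the threshold for Jun, Klf6, and Myc. In the 500s 6053 of 17131 tested genes passed, 3203 of them higher and the rest lower. In Myc, the vehicle mice of the 300s had 4.05 to 6.35 CPM and the KW6002 mice of the 300s had 7.99 to 9.40 CPM, while in the 500s the vehicle mice had 7.36 to 8.74 CPM and the KW6002 mice 4.14 to 7.06 CPM.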

How the results depend on the processing

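The 10 factors kept their higher side and their calls for cisplatin and for co-treatment against vehicle under every alternative that tested them. The filter of at least 10 counts in every library left Fosl1 untested, so that 9 were tested and 9 passed. Fosl1 was selected for testing through the kidneys given cisplatin, so its side against vehicle is no sign of stability. With each library left out in turn, 10 factors passed in both of these comparisons, 6 to 8 between co-treatment and cisplatin, 5 for the difference of the KW6002 effects, and 0 for KW6002 alone. Of 17131 tested genes, 5700 to 5940 passed higher with cisplatin and 4849 to 5151 with co-treatment against vehicle in these fits. Between co-treatment and cisplatin 8887 (4571 of them higher) to 9630 (4936 higher) passed. The difference of effects passed for 6759 (3634 higher) to 7475 (4005 higher), and KW6002 alone for 1 to 64. Only the restriction to the mice numbered in the 500s moved a count by more than 1.5 times: the difference of the KW6002 effects then passed for 2 factors in place of 5, with fewer mice in the fit. Over all 17131 tested genes that difference passed for 6053 in the 500s (3203 of them higher) and for 7312 in all mice (3902 of them higher). Values that passed moved by over 1.5 times for Atf3 between co-treatment and vehicle (1.61 with the label series as a covariate, 2.44 without) and for Myc in the difference of effects (-0.49 in the 500s, -1.16 in all).

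Between co-treatment and cisplatin, Junb passed in the 500s alone (-0.38, adjusted p = 0.0444), and Egr1 passed with scaling by library size only (-0.75, adjusted p = 0.0484) and with the label series as a covariate (-0.69, adjusted p = 0.0459). The replicate number as a block gave 8 factors passing lower in place of 6, with Junb at -0.45 (adjusted p = 0.0486) and Egr1 at -0.93 (adjusted p = 0.0173) added. With the block 9380 of 17131 tested genes passed in this comparison, 4796 of them higher and the rest lower. The replicate numbers did not pair the mice, since deviations of same-numbered mice correlated between -0.175 and 0.405 (median 0.00846, 7 of 31 pairs above 0.1).

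The sign turned in 29 cases, none of which passed under either setting, and the cause was not tested. For Fos the difference of effects was 0.02 and turned to -0.052 with library size only, -0.039 with the block, -0.10 in the 500s, and -0.0039 in DESeq2, with -0.19 to 0.21 when a library was left out. Fos ran from -0.37 to 0.027 between co-treatment and cisplatin with a library left out. For KW6002 against vehicle the values with a library left out ran from -0.36 to 0.027 for Fos, -1.17 to 0.27 for Fosl1, -0.048 to 0.059 for Jun, -0.26 to 0.032 for Junb, -0.021 to 0.67 for Atf3, and -0.18 to 0.26 for Egr1. In the same comparison Jun was -0.013 with the block and -0.049 in the 500s, Egr1 was -0.070 with the block and -9.3e-04 with the series covariate, and Myc was -0.42 in the 500s. Genes passing for KW6002 against vehicle numbered 3 in edgeR and 102 in DESeq2. Groups of 5 or 6 mice at a single time limit the differences between co-treatment and cisplatin for the factors that vary most, and Fosl1 without cisplatin is at the counting limit.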
